A study of Mus musculus with 3 samples.

Results

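The genes described here are 10 markers of macrophages, examined to ask whether myeloid cells contributed RNA to cultures labelled as mouse cavernous endothelial cells. They were chosen by name (Ptprc, Cd68, Csf1r, Lyz2, C1qa, C1qb, C1qc, Fcer1g, Tyrobp and Itgb2), and probes were taken where the accession printed in the array file belongs to that symbol. Of the 10 genes, 9 had a named probe, with 11 probes in all, among 19751 named genes and 39429 probes on the array. Cd68, a lysosomal glycoprotein of phagocytes, was not matched to a probe and has no value here.

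The cells were primary endothelial cells from the penile cavernous tissue of C57BL/6 mice, kept in a medium with serum, heparin and vascular endothelial growth factor A. The 3 groups are high glucose (30 mmol) with siRNA against Ninj1 (200 pmol), high glucose (30 mmol), and normal glucose (5 mmol), each sampled after 48 h. Each group is 1 single-colour array hybridised with RNA pooled from 3 numbered samples. The labels do not state what the cultures outside the Ninj1 siRNA group were transfected with, and they describe no cell sorting. A single array per group gives no replicate spread, so no test was run, and all directions describe these arrays only. Ninj1 itself, read by 1 probe, had signals of 25539, 16291 and 20413 on the arrays labelled siRNA, high glucose and normal glucose. The target of the siRNA was thus brightest under the siRNA label, and the names of the deposited files exchange the group words of the high-glucose arrays. Each array is therefore called by its label, and a direction holds for the array so labelled.

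Macrophages are phagocytes that live in nearly all tissues and clear dead cells, debris and microbes. They depend on the receptor Csf1r for survival, carry the leukocyte phosphatase Ptprc (CD45), and sense their targets through receptors that signal by way of the adaptors Fcer1g and Tyrobp. Tissue macrophages are also a main source of the complement protein C1q, and in mice Lyz2 encodes the lysozyme that they and other myeloid cells secrete.

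All 9 genes with a probe were marked well above background on each of the 3 arrays, where 77.5%, 75.1% and 74.6% of the named genes were so marked on the arrays labelled siRNA, high glucose and normal glucose. Of the 9, Lyz2, Fcer1g and Ptprc were past 2-fold and lower on the siRNA array than on the high-glucose array, and the other 6 differed by at most 1.30-fold. Over all 15625 genes compared, 8.21% were lower by 2-fold or more and 6.52% were higher by as much. The median log2 difference of the 9 was -0.30, with 7 lower and 2 higher, against 0.01 over the 14521 genes measured on both arrays. Between the labels high glucose and normal glucose none of the 9 reached 2-fold in either direction, where the shares of 15081 genes past it were 0.816% upward and 0.69% downward. In bulk RNA, fewer cells of a type and less RNA per cell cannot be told apart.

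**Figure D1:**
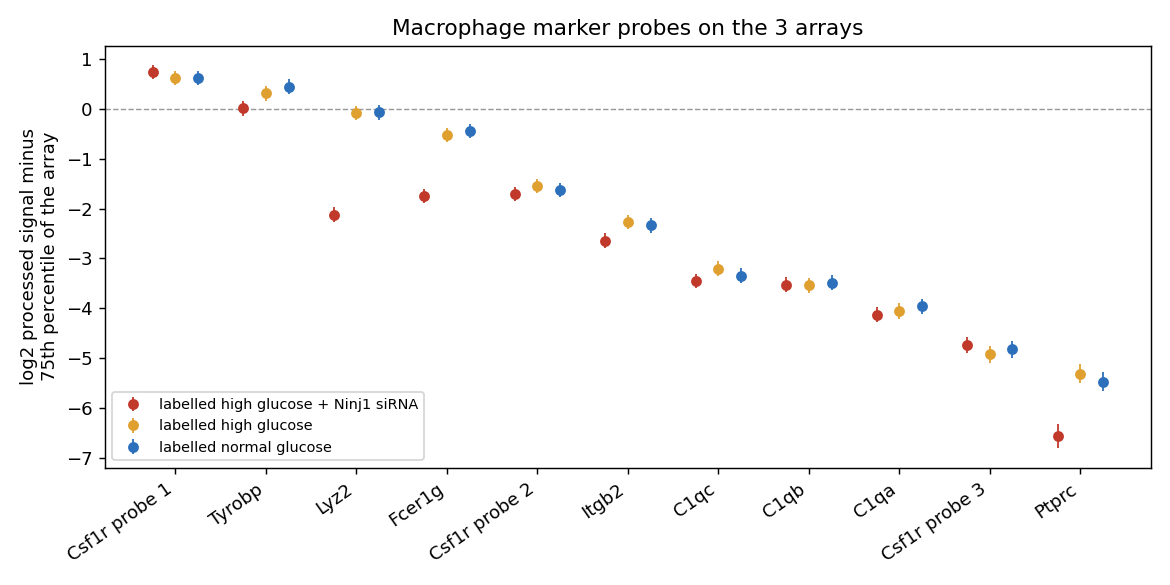
Levels of the 11 macrophage marker probes on the 3 arrays, as log2 processed signal minus the 75th percentile of the array, with bars for the scanner software's error of the spot signal. Lyz2, Fcer1g and Ptprc lie lower under the siRNA label, and the 3 probes of Csf1r lie far apart from each other.

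The levels are fluorescence signals, and probes differ in how brightly they bind, so a signal gives no share of cells and the genes are not ranked by it. The Csf1r probes show this directly. The 3 probes carry the same accession, yet on the array labelled high glucose the brightest gave 47.0 times the signal of the dimmest. The lowest signal marked well above background was 11.7 under siRNA, 16.4 under high glucose and 16.9 under normal glucose.

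Lyz2 and Ptprc, a secreted enzyme and a leukocyte surface phosphatase, were both lower under the siRNA label. Lyz2 gave signals of 465 under the siRNA label, 1641 under high glucose and 1696 under normal glucose. It stood out on the siRNA array only: after scaling to each array's 75th percentile it was 4.13-fold lower there than under high glucose (log2 difference -2.05) and 4.15-fold lower than under normal glucose. Lyz1, the closely related lysozyme gene of mouse Paneth cells, gave 6527 under siRNA, 13611 under high glucose and 15802 under normal glucose. It was 2.44-fold lower under siRNA than under high glucose. Lyz1 and Lyz2 are near copies, so their probes may share signal. Ptprc, the phosphatase that marks nearly all leukocytes, gave 21.4 under siRNA, 43.5 under high glucose and 40.0 under normal glucose. It was dim on every array and 2.39-fold lower under the siRNA label than under high glucose (-1.25), from 1 spot per array with a scanner software error of 0.31 on the log2 difference. With normexp background correction, limma's model of background and signal, the difference was -0.60, which is 1.52-fold.

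Signalling adaptors did not move alike. Fcer1g, the common gamma chain of Fc receptors, gave 605 under the siRNA label, 1207 under high glucose and 1316 under normal glucose, which is 2.33-fold lower under siRNA than under high glucose (-1.22) and 2.47-fold lower than under normal glucose. Tyrobp, the adaptor DAP12 of activating myeloid receptors, gave 2041 under siRNA, 2148 under high glucose and 2430 under normal glucose. Its scaled level was 1.23-fold lower under siRNA than under high glucose (-0.30), and its highest signal was the one under normal glucose. Csf1r, the receptor for the growth factors Csf1 and Il34, went slightly the other way on its brightest probe, with 3375 under siRNA, 2672 under high glucose and 2744 under normal glucose and a log2 difference of 0.11. Its other probes gave -0.16 (621 under siRNA, 592 under high glucose and 575 under normal glucose) and 0.19 (75.9 under siRNA, 56.9 under high glucose and 62.8 under normal glucose), so the 3 probes did not share a direction. Itgb2, the beta chain of the leukocyte integrins, gave 324 under siRNA, 359 under high glucose and 353 under normal glucose. It was 1.30-fold lower under siRNA than under high glucose (-0.38).

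The C1q chains, which assemble together into the recognition molecule of the classical complement pathway, had nearly level signals on the 3 arrays. C1qa gave 116, 104 and 114 under siRNA, high glucose and normal glucose. C1qb gave 175 under siRNA, 149 under high glucose and 158 under normal glucose. Their log2 differences between the siRNA and high-glucose labels were -0.07 and 0.01, inside the spread of single spots, and their signs turned under 1 of 6 other ways of scaling or correcting each. C1qc was printed at 10 spots per array and so has an error of its own. Its signal was 184 ± 9.85 over 9 spots under the siRNA label, 188 ± 10.7 over 8 spots under high glucose and 175 ± 4.25 over 9 spots under normal glucose (SD over spots of 1 array, after leaving out 1, 2 and 1 spots marked as outliers, the last with a signal of 270.7). The ranges of the spots overlapped between all 3 arrays, from 170 to 207, 170 to 200 and 170 to 181. Scaling turned this into a log2 difference of -0.25 between the siRNA and high-glucose labels.

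**Figure D2:**
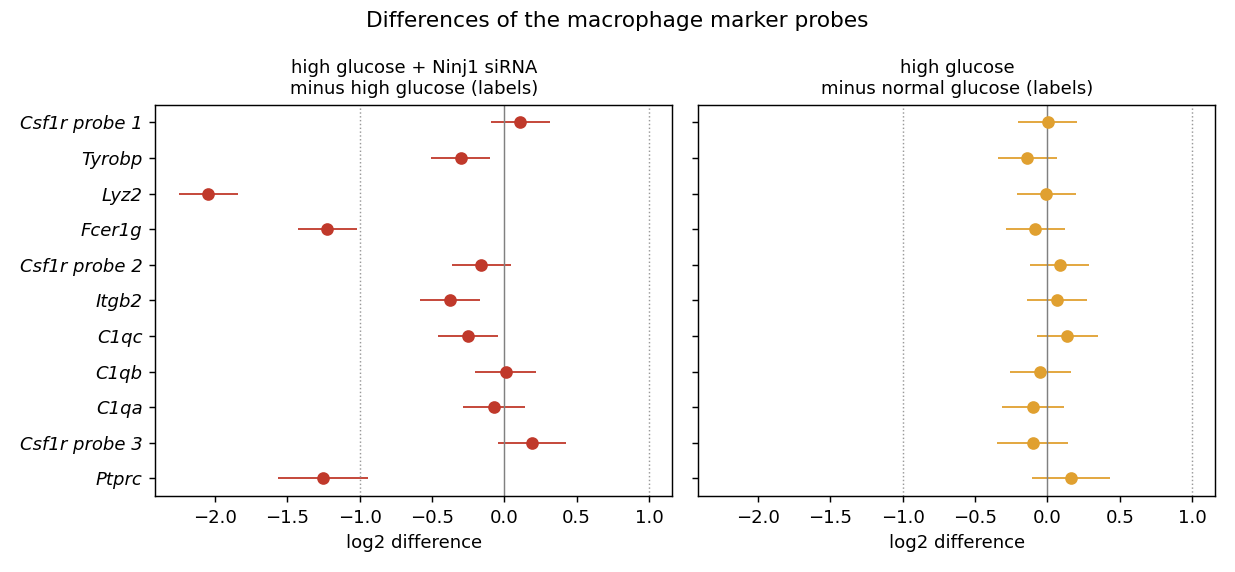
Scaled log2 differences of the 11 macrophage marker probes, siRNA label minus high-glucose label on the left and high-glucose label minus normal-glucose label on the right. Bars are the scanner software's errors of the 2 spots combined, and dotted lines mark 2-fold. On the left Lyz2 (-2.05), Ptprc (-1.25) and Fcer1g (-1.22) lie past 2-fold, and on the right the 11 probes lie between -0.14 and 0.16.

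Spot noise was gauged from probes printed 10 times. A difference of 2 spots had an SD of 0.22 on the log2 scale for the 46 such probes with signals under 100, 0.09 for the 82 between 100 and 1000, and 0.07 for the 172 above 1000. Between siRNA and high glucose, C1qa and C1qb differed by less than the SD of their range, and Lyz2, Fcer1g, Ptprc, Tyrobp, Itgb2, C1qc and the brightest Csf1r probe by more. This noise holds no culture, pooling or hybridisation error. The scanner software's error was larger, at 0.20 on the log2 difference of the brightest Csf1r probe, which exceeds its difference of 0.11.

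In the comparison with normal glucose, which uses the same siRNA array as the comparison above, Lyz2 (-2.05), Fcer1g (-1.31) and Ptprc (-1.09) were again past 2-fold and lower on the siRNA array, where the shares of 15581 genes past it were 7.93% downward and 6.35% upward. With normexp, Ptprc was at -0.48 in this comparison, short of 2-fold. The other 6 lay between -0.44 for Tyrobp and 0.11 for Csf1r. Set against normal glucose, the high-glucose array had the 9 genes between -0.14 for Tyrobp and 0.16 for Ptprc, with a median of -0.01. The summed signal of the 9 genes, each by its brightest probe, was 7306 under siRNA, 8509 under high glucose and 9026 under normal glucose. Divided by the 75th percentile of the array, the sums were 3.61 under siRNA, 4.92 under high glucose and 5.07 under normal glucose.

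Promoter sequences are shown because Lyz2, Fcer1g and Ptprc were lower together by 2-fold or more, while C1qb (0.01) and C1qc (-0.25) stayed short of 2-fold. Myeloid promoters are known for binding PU.1, a factor of the ETS family encoded by Spi1, whose sites are built around GGAA. The 250 bases before each annotated start are given 5′ to 3′ on the strand of the gene, from RefSeq on GRCm38.p6, with capitals marking GAGGAA or GGAAGT on either strand. GGAAGT was added after these sequences were seen. Of the 10 genes 6 were in the promoter table, among them Cd68, which is not shown since it has no value here, and for Ptprc the first of its listed starts is shown.
Lyz2, chr10:117282273-117282522, strand -: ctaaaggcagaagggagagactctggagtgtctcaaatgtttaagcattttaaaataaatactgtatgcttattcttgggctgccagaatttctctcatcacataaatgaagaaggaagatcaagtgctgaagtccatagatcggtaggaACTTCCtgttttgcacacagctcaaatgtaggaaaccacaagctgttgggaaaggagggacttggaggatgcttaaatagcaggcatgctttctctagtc
Fcer1g, chr1:171234350-171234599, strand -: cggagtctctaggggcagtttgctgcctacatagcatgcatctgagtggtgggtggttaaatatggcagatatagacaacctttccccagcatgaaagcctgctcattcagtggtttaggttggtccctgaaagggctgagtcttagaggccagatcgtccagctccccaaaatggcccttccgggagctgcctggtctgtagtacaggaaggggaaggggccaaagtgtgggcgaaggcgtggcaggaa
Ptprc, chr1:138175306-138175555, strand -: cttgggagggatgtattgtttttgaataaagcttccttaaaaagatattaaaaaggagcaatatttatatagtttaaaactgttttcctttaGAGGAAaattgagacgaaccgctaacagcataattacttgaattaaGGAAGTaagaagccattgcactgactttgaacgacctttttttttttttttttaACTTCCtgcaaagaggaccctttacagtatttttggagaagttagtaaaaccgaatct
C1qb, chr4:136886201-136886450, strand -: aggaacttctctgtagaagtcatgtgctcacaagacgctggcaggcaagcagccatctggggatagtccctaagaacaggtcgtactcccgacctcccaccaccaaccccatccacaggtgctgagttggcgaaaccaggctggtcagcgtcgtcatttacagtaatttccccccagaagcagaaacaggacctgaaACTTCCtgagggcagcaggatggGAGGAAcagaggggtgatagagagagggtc
C1qc, chr4:136892915-136893164, strand -: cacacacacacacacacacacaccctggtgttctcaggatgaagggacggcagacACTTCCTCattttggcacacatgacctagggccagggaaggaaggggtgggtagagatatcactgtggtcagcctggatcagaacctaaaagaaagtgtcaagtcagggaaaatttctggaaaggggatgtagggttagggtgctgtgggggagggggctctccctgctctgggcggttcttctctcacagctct
Among the 5 shown, GAGGAA occurred in Ptprc, C1qb and C1qc, and GGAAGT in Lyz2, Ptprc, C1qb and C1qc; in C1qc the matches overlap. Fcer1g held neither. Among 32851 promoters of the same length 23.3% held GAGGAA and 19.7% held GGAAGT on either strand. The lower genes Lyz2 and Ptprc thus held a match, and so did C1qb and C1qc. The share of promoters holding either motif was not computed, and GGAAGT was added after these sequences were seen. A match is a description of the sequence, not a binding site.

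Partners of these proteins, 21 genes, were read next by role. Of the 19 above background on at least 1 array, 7 were 2-fold or more lower under siRNA than under high glucose and none was 2-fold higher, against 8.21% and 6.52% of all genes. The ligands of Csf1r were both well above background on all arrays: Csf1 gave 47673, 57146 and 57944 under siRNA, high glucose and normal glucose. Il34 gave 1504 under siRNA, 1450 under high glucose and 1606 under normal glucose. All 3 probes of Csf1 were lower under siRNA than under high glucose, by 1.40-fold to 1.57-fold. Among the alpha chains that pair with Itgb2, Itgal gave 163 under siRNA, 110 under high glucose and 125 under normal glucose. Itgad gave 19.6 under siRNA, 28.1 under high glucose and 16.6 under normal glucose, the last not well above background. Itgax, the alpha chain CD11c, gave 24.0 under siRNA, 198 under high glucose and 75.4 under normal glucose. Its high value lay on the high-glucose array: siRNA was 9.62-fold lower than high glucose, and high glucose was 2.70-fold higher than normal glucose. Itgam, the alpha chain CD11b, gave 19278 under siRNA, 21570 under high glucose and 23039 under normal glucose on its brightest probe. The other 2 Itgam probes gave 57.5 under siRNA, 68.9 under high glucose and 70.7 under normal glucose, and 51.5 under siRNA, 31.3 under high glucose and 36.4 under normal glucose. Under high glucose its brightest probe was 690 times its dimmest, and the probes did not share a direction (-0.39, -0.49 and 0.49).

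Receptors that signal through Tyrobp and Fcer1g were present unevenly. Trem2, a lipid-sensing partner of Tyrobp, gave 4206 under siRNA, 2654 under high glucose and 2743 under normal glucose. It was 1.35-fold higher under siRNA than under high glucose. Trem1 gave 2263 under siRNA, 2318 under high glucose and 2299 under normal glucose, and Clec5a was below the background mark on all 3. For Fcer1g, the Fc receptor genes Fcgr3 (97.5 under siRNA, 152 under high glucose and 181 under normal glucose) and Fcgr4 (68.9 under siRNA, 87.2 under high glucose and 99.4 under normal glucose) were dim and 1.83-fold and 1.48-fold lower under siRNA than under high glucose. Fcgr1 was dim as well and higher by 0.36 on the log2 scale (56.3 under siRNA, 37.4 under high glucose and 27.5 under normal glucose), while Fcer1a, the alpha chain of the mast cell IgE receptor, was not well above background anywhere. The kinase Syk, which docks on both adaptors, gave 582 under siRNA, 323 under high glucose and 317 under normal glucose. It was 1.54-fold higher under siRNA than under high glucose, and Lyn, which phosphorylates them, gave 98.5 under siRNA, 75.9 under high glucose and 73.3 under normal glucose (0.15).

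Genes of proteins that act with C1q were lower under siRNA than under high glucose. The protease C1ra gave 10073 under siRNA, 47418 under high glucose and 47895 under normal glucose. The protease C1s1 gave 22313 under siRNA, 90091 under high glucose and 87705 under normal glucose. They were 5.51-fold and 4.73-fold lower under siRNA than under high glucose. C4b and C2, which encode substrates of the C1s1 protease, were 6.32-fold and 2.76-fold lower, and the C1 inhibitor gene Serping1 was 6.01-fold lower. Fibroblasts, as well as macrophages, are known to make several of these proteins.

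A wider list of 46 macrophage and monocyte markers, of which 6 are also partners above, gave 45 genes with a probe, and 39 of them were well above background on at least 1 array, as were 79.8% of all named genes. Of these 39, 16 were lower by 2-fold or more on the siRNA array than on the high-glucose array and 1 was higher by as much, against 8.21% and 6.52% of all genes. The median of the 37 measured ones was -0.75, with 31 lower and 6 higher. All 16 were also lower by 2-fold or more than under normal glucose, a comparison that shares the siRNA array. The largest were Itgax above, Cybb, the catalytic subunit of the phagocyte oxidase (16.3 under siRNA, 63.3 under high glucose and 56.7 under normal glucose, 4.55-fold lower), Adgre1, the macrophage antigen F4/80 (257 under siRNA, 917 under high glucose and 860 under normal glucose, 4.18-fold lower), and Ctss, a lysosomal protease that processes the invariant chain for antigen presentation (1544 under siRNA, 5007 under high glucose and 5248 under normal glucose, 3.80-fold lower). Adgre1 was also lower on its second probe, by 3.20-fold.

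Others of the 16, named after their values were seen, are known mainly from cells of blood origin. Mpeg1, the pore-forming perforin-2 of macrophages, gave 975 under siRNA, 2430 under high glucose and 2429 under normal glucose. It was 2.92-fold lower. Ms4a7 gave 761 under siRNA, 1805 under high glucose and 1910 under normal glucose. It was 2.78-fold lower. The leukocyte signalling genes Vav1 and Rac2 were 3.20-fold and 3.01-fold lower, the lysosomal protein Laptm5 3.11-fold and the actin regulators Nckap1l and Coro1a 2.53-fold and 2.35-fold. Most were dim: 11 of the 16 had a signal under 300 on the array labelled high glucose. Dim signals were common in the whole list, where 27 of the 39 genes above background stayed under 300 on all 3 arrays. Of the 16, 4 had a second probe above background on both arrays, which was lower for 4 and at least 2-fold lower for 2. With normexp background correction 9 of the list were at least 2-fold lower, where 5.01% of all genes were lower by as much. Not all leukocyte genes of the list were lower, and 6 of the 37 measured were higher under siRNA than under high glucose. Among these 6, Ptpn6 was 1.72-fold higher (181 under siRNA, 89.9 under high glucose and 98.1 under normal glucose). Cd53 was 1.55-fold higher (460 under siRNA, 254 under high glucose and 270 under normal glucose). Irf8 (-0.07) and Cd37 (-0.09) were nearly level.

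**Figure D3:**
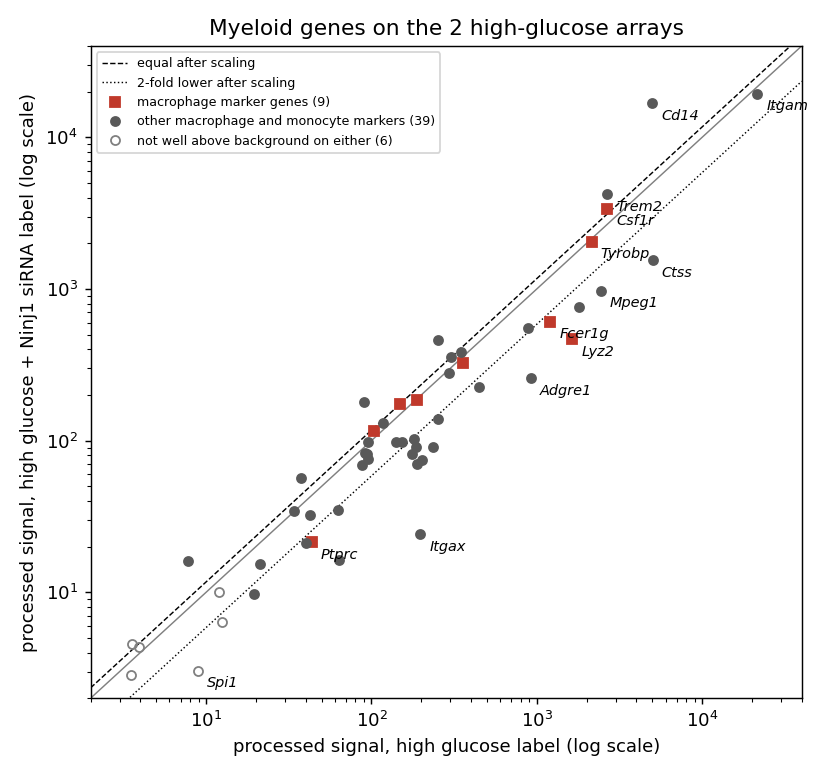
Processed signals of 9 macrophage marker genes (squares) and 45 other macrophage and monocyte markers (circles), siRNA label on the vertical axis against high-glucose label on the horizontal axis, both log scales. The dashed line is equality after scaling, the dotted line 2-fold lower after scaling, and the solid line equal raw signal. Adgre1, Ctss, Mpeg1, Lyz2 and Itgax lie under the dotted line, Cd14 lies above the dashed one.

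Other defining macrophage genes were not 2-fold lower or were not read. Cd14, the lipopolysaccharide co-receptor, gave 16711 under siRNA, 4990 under high glucose and 5421 under normal glucose. It was 2.86-fold higher under siRNA than under high glucose, the 1 gene of the list past 2-fold in that direction. Mrc1, the mannose receptor, gave 357 under siRNA, 303 under high glucose and 346 under normal glucose (0.01). Aif1, the microglia and macrophage protein Iba1, gave 81.0 under siRNA, 93.4 under high glucose and 99.0 under normal glucose (-0.43). It was thus lower under siRNA, short of 2-fold. Spi1, the gene of PU.1, was below the background mark on all arrays, with signals of 3.03 under siRNA, 8.96 under high glucose and 3.66 under normal glucose. The same held for Cd163, Cx3cr1, Ccr2 and Timd4. All 9 marker genes with a probe were thus read, while some of the wider markers, Spi1 among them, were not.

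Markers of other blood cells were read on the same arrays, where 79.8% of all named genes passed the background mark on at least 1 array. The all-gene shares past 2-fold between siRNA and high glucose, 6.52% higher and 8.21% lower, apply to each count that follows. Of 11 neutrophil genes with a probe 7 passed the background mark on at least 1 array, with none at least 2-fold lower under siRNA than under high glucose and 2 higher: S100a9 (178 under siRNA, 30.3 under high glucose and 42.9 under normal glucose, 5.01-fold) and S100a8 (30085 under siRNA, 9509 under high glucose and 11300 under normal glucose, 2.70-fold). Lcn2 was bright on every array, at 81373 under siRNA, 104900 under high glucose and 109770 under normal glucose. So was Csf3r, at 58507 under siRNA, 63009 under high glucose and 62235 under normal glucose, while Ltf, Ngp, Retnlg and Cxcr2 were not above background on any. Of 14 T, B and NK cell genes 8 passed it, with 1 at least 2-fold higher (Cd79a, at least 4.58-fold) and none lower. Of 8 mast cell genes 5 passed it, with Cpa3 at least 3.90-fold higher and Hdc at least 2.59-fold lower.

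Fibroblast and endothelial markers moved as well, and their part in the differences of the macrophage genes was not tested. All 15 fibroblast markers were above background on every array, as were 72.7% of all named genes. Their median was -0.77, and 6 of 15 were lower by 2-fold or more and none was higher by as much, against 8.21% and 6.52% of all genes. Among the 6 were Dpt, encoding dermatopontin (128 under siRNA, 929 under high glucose and 863 under normal glucose), and Lum, encoding lumican (3673 under siRNA, 21306 under high glucose and 21453 under normal glucose). Of all 15 fibroblast markers, 11 were lower and 4 were higher. The largest of the higher ones was Fap, 1.81-fold (12373 under siRNA, 5841 under high glucose and 6121 under normal glucose). The summed signal of the 15, divided by the array's 75th percentile, was 634 under siRNA, 834 under high glucose and 837 under normal glucose. Of 20 endothelial markers 14 were above background under siRNA, 15 under high glucose and 15 under normal glucose, against 77.5%, 75.1% and 74.6% of named genes on those arrays. Tie1, Emcn, Erg and Sox18 were not above background on any, while 13 of the 20 were on every array. Among these 13, Egfl7 gave 5967 under siRNA, 3194.5 under high glucose and 3354.5 under normal glucose. In the same order Eng gave 1500, 2242 and 2207, and Pecam1 gave 72.4, 76.5 and 61.9. Kdr, a receptor for vascular endothelial growth factor A, gave 8278 under siRNA, 7298 under high glucose and 7440 under normal glucose. Cdh5, the cadherin of endothelial junctions, gave 618 under siRNA, 185 under high glucose and 166 under normal glucose. It was 2.86-fold higher under siRNA than under high glucose. The endothelial median was -0.05, with 3 of 16 higher by 2-fold or more and 4 lower by as much, against 6.52% and 8.21% of all genes. The 3 higher were Sox7 (3.05-fold), Cdh5 and Esam (2.22-fold). The 4 lower were Tek (at least 3.81-fold), Vwf (2.40-fold), Robo4 (2.13-fold) and Cldn5 (at least 2.12-fold), all with signals under 100. The summed endothelial signal divided by the 75th percentile was 9.09 under siRNA, 8.32 under high glucose and 8.19 under normal glucose. Lysosome genes that most cells use, 18 in number, were all above background on every array and had a median of -0.07, with none past 2-fold.

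**Figure D4:**
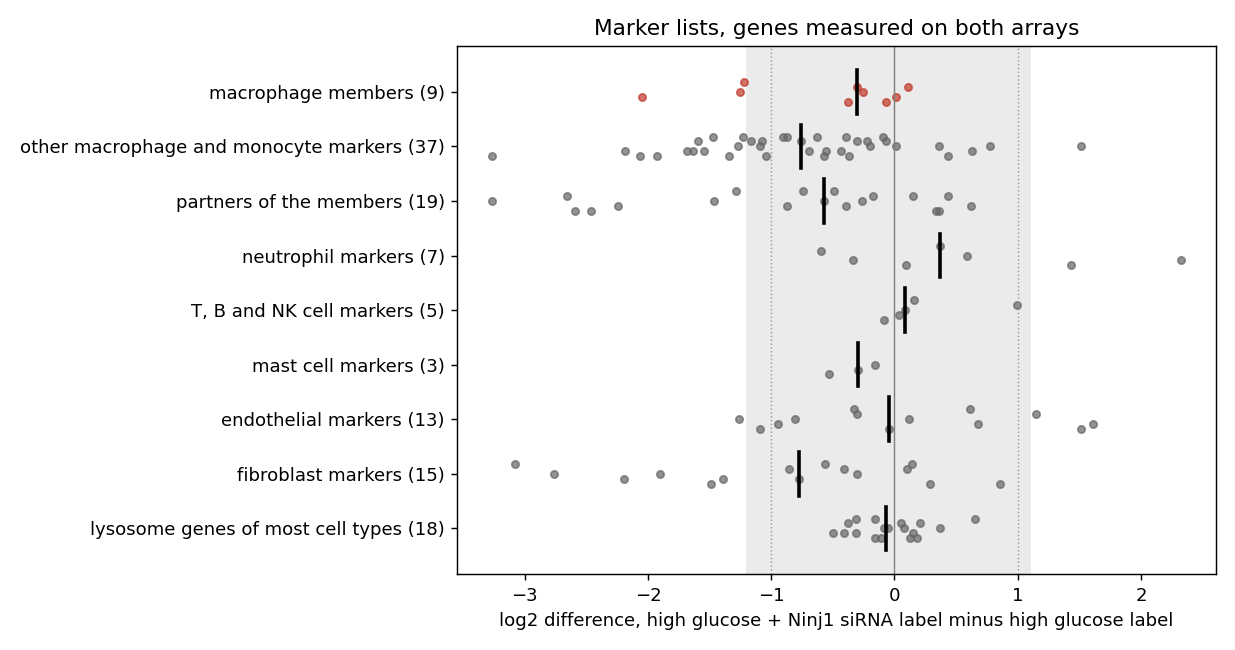
Scaled log2 differences, siRNA label minus high-glucose label, of the genes measured on both arrays in each marker list, with the number of genes in parentheses and a bar at the list's median. The grey band spans the 5th to the 95th percentile of all measured genes and dotted lines mark 2-fold; the macrophage genes have a median of -0.30 and the wider macrophage list -0.75.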

How the data were processed

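Total RNA, pooled over 3 numbered samples per group per the labels, was hybridised as Cy3-labelled cRNA to 3 arrays. Agilent Feature Extraction 11.0.1.1, per the file headers, gave each spot's intensity, and the authors deposited its background-subtracted processed signal, on a linear scale. The deposited value table is in linear intensity as well; its columns equal the processed signals of the same arrays to within 0.1% for 100% of 39030 single-spot probes, with medians of 129, 118 and 118 for siRNA, high glucose and normal glucose. The scanner marks deposited by the authors, 0 or 1 per spot, say whether a spot is well above background, and a mark on 50% of a probe's spots was required.

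Outlier spots (107 under siRNA, 147 under high glucose and 109 under normal glucose) were left out, log2 processed signals averaged per probe, and each array's 75th percentile (signals of 2024, 1729 and 1780 in the same order of arrays) subtracted. No spot was saturated. Probes were named by unversioned accession through the RefSeq table of GRCm38.p6 (26055 of 39429, 66.1%), and a gene is read by the brightest of its probes that passed the mark on 1 or more arrays. Where 1 of 2 arrays was not above background, the bright value was set against the higher of the dim value and the lowest value above background there. With 1 array per group, 2-fold is a size, not a test, and the number of arrays limits the precision. The members and gene lists were chosen with earlier results of these data known. Named genes are the members, their partners, the brightest and most different of each list and a few defining markers, and only part of them are printed. Alternatives were quantile normalization, cyclic loess and normexp with an offset of 50 (limma 3.58.1; on median spot signals, since mean signals were not used here), scaling to the median of bright probes, the value table, the mean over probes, other filters, and 1.5-fold and 3-fold thresholds. The difference steps were tested on simulated data.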

Additional observations from a re-analysis of the deposited data

How the results depend on the processing

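The counts of marker genes above background were the same with the stricter and the looser background mark. Of the 9 genes, the same 3 were at least 2-fold lower under the siRNA label than under high glucose with 5 of the 6 other ways of scaling, correcting or summarising. Among these 5, the value table and the mean over probes could not change the result. The value table holds the same processed signals, and each of the 3 genes has 1 probe. With normexp Ptprc fell by 0.60 on the log2 scale, short of 2-fold, while Lyz2 (-1.93) and Fcer1g (-1.10) stayed past it. At 3-fold, 1 gene (Lyz2) was lower than under high glucose and 1 than under normal glucose, where 3.35% and 3.26% of all genes were lower by as much.

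In the wider macrophage list, run through the same alternatives after the data were seen, normexp gave 9 genes at least 2-fold lower than under high glucose and 10 than under normal glucose, with medians of -0.54 and -0.63. With normexp 5.01% and 4.94% of all genes were lower by as much. Quantile normalization gave medians of -0.64 and -0.92, and no filter on dim probes -0.71 against normal glucose. At 3-fold, 7 and 9 were lower and 0 and 0 higher. Over all genes, 3.35% and 3.26% were lower by 3-fold and 2.62% and 2.52% higher. At 1.5-fold, 22 and 23 were lower and 3 and 3 higher. The all-gene shares at 1.5-fold were 15.7% and 15.4% lower and 14.3% and 13.8% higher. With no filter 2 were 2-fold higher than under normal glucose, where 7.2% of all genes were. Between high glucose and normal glucose, 3 were lower at 1.5-fold, and 0 were higher with normexp, 3 with no filter and 0 at 3-fold. The all-gene shares were 1.24% lower at 1.5-fold, and 0.285%, 2.19% and 0.55% higher in the same order of settings. The cause was not tested, other than that a threshold changes a count by construction.

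Over all genes, normexp gave 620 higher and 783 lower between siRNA and high glucose in place of 1018 and 1283, 605 and 770 against normal glucose in place of 990 and 1236, and 43 and 33 between high and normal glucose in place of 123 and 104 (433 and 329 with no filter, 35 and 26 with every array above background). No replicate could be left out with 1 array per group. No paired analysis was possible because each group has 1 array.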
